A study of Mus musculus with 14 samples.

Results

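The genes described are 10 transcription factors of mesenchymal cells: Snai1, Snai2, Twist1, Twist2, Zeb1, Zeb2, Prrx1, Prrx2, Foxc2 and Tcf21. They were chosen by name, not by a threshold on their values, from 19935 genes named on the array. Earlier results of these data were known when they were chosen. Each of the 10 has 1 probe set (1 group of probes against 1 transcript unit), so no choice between probe sets had to be made. Expression came from 14 Affymetrix whole-transcript arrays of mouse embryonic fibroblasts of the ICR strain. Cells received SKO with an empty Flag vector (SKO+Flag), SKO with HDAC7, SKO with MEF2C, or GFP without SKO, and were lysed at day 6 or day 10. The labels leave SKO unexplained; in this field it usually means the transgenes Sox2, Klf4 and Oct4 (Pou5f1). Thus 12 arrays share SKO, and the empty vector with SKO is the control for HDAC7, a class IIa histone deacetylase, and for MEF2C, a transcription factor that class IIa deacetylases bind. Each SKO group had 2 arrays a day, numbered as experiments 1 and 2, and GFP had 1 array a day. All cells were kept in medium for embryonic stem cells, and feeder cells were removed before RNA was extracted. The labels name neither the promoters of the vectors nor the share of cells that took them up. They do not state whether experiments 1 and 2 came from separate cultures, so the p-values cover the spread between arrays alone, and that spread may be technical. The groups were taken from the vector and day labels and not from a free-text note, the same on every array, that mentions a pre-iPSC sample.

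These are factors of mesenchymal cells, and several of them, not all, drive epithelial-mesenchymal transition (EMT), in which epithelial cells lose their junctions and become motile. The zinc finger proteins SNAI1, SNAI2, ZEB1 and ZEB2 bind E-box DNA and repress epithelial genes such as the E-cadherin gene Cdh1, while TWIST1 and TWIST2 are basic helix-loop-helix (bHLH) factors that bind E-boxes as dimers. PRRX1 and PRRX2 are paired-type homeobox factors of limb and facial mesenchyme, FOXC2 is a forkhead factor of mesoderm and lymphatic development, and TCF21 is a bHLH factor of mesenchymal progenitors. Reprogramming of fibroblasts with SKO passes through the reverse change, a mesenchymal-epithelial transition.

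The labels were checked on the transduced genes. Hdac7 lay between 11.16 and 11.38 (log2 expression value) on the 4 SKO+HDAC7 arrays and at 7.44 or below on the others. Mef2c lay between 9.48 and 9.93 on the 4 SKO+MEF2C arrays and at 6.81 or below elsewhere. Pou5f1 lay at 11.70 or above on the 12 SKO arrays, against 5.24 and 5.18 on the GFP arrays. The other genes usually meant by SKO showed no such gap: with SKO+Flag against GFP, Sox2 differed by 0.26 at day 6 and 0.06 at day 10 (limma adjusted p = 0.070 and 0.70). Klf4 differed by 0.03 at day 6 and 0.32 at day 10 (limma adjusted p = 0.90 and 0.035). Whether these probe sets read the transgenes was not tested. All 8 fibroblast markers examined were above the array median on every array, and all 6 markers of pluripotent cells were below it on every array. The 2 arrays of a group correlated at 0.995 to 0.997. Array medians lay between 5.68 and 5.76, which gives a scale for the values that follow.

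RefSeq promoter windows, each from 250 bases before to 50 bases after a start site, were scanned for 7 of the 10 factors (build GRCm38.p6). None was scanned for Snai2, Zeb1 and Foxc2, and the search did not cover every chromosome. The windows shown belong to Snai1, the factor with a motif match, and to Twist1, Twist2 and Prrx2, which were raised together when MEF2C was added. They lie at chr2:167537945-167538244, chr12:33957421-33957720, chr1:91801211-91801510 and chr2:30845117-30845416, all on the plus strand, and are written 5′ to 3′. Capitals mark a match to the E-box CANNTG or to the MEF2 consensus, searched on both strands.
Snai1: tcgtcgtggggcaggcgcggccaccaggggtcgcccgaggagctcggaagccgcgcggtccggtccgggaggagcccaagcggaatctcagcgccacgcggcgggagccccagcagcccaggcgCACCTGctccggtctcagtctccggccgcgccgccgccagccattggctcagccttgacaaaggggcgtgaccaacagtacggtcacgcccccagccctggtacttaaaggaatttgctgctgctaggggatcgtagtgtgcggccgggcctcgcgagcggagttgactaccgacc
Twist1: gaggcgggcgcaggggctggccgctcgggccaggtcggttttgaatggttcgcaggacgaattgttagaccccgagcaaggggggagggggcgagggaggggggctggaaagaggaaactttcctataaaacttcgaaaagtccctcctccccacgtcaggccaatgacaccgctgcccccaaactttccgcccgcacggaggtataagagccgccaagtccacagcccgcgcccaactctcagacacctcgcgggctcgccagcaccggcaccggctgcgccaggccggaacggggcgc
Twist2: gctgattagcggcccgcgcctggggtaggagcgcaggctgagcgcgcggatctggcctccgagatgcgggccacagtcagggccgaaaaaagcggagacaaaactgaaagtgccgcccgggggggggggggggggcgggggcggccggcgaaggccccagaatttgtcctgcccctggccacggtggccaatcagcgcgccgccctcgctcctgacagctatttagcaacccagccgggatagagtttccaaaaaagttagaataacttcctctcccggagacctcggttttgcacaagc
Prrx2: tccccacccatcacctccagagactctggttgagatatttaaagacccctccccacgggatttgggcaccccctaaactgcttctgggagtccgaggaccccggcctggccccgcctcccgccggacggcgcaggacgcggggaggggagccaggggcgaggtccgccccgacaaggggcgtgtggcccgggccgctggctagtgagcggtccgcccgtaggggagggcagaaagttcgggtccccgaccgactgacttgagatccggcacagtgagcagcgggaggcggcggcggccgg
The match in the Snai1 window is CACCTG, the form of E-box that SNAI and ZEB factors bind, and it begins at position -126 from the start site. CACCTG is itself a CANNTG E-box, so both searches found the same letters. No other match to either motif was found in the 10 windows of the 7 factors. Several of these windows belong to Zeb2, and those at chr2:45113230-45113529 and chr2:45113204-45113503 overlap, so the windows are not all separate. Among 32851 mouse windows of the same length, 72.3% held CANNTG, 20.2% held CACCTG and 3.19% held the MEF2 consensus. Those mouse windows were not limited to the chromosomes searched for the factors. A match is a description of letters and not a binding site.

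The factors were not alike in how much they varied over the 8 groups of vector and day. The span between the highest and lowest group mean was 2.41 on the log2 scale for Snai2 (5.32-fold), 1.93 for Prrx2 (3.80-fold), 1.69 for Foxc2 (3.24-fold), 1.67 for Twist2 (3.18-fold) and 1.48 for Snai1 (2.80-fold). It was 0.95 for Twist1, 0.93 for Zeb1, 0.80 for Prrx1, 0.52 for Zeb2 and 0.49 for Tcf21. The median span of all 19935 genes was 0.34, and 10.2% of them spanned 1 or more, as 5 of the 10 factors did. The lowest group was SKO+HDAC7 at day 10 for 7 factors, namely Snai1, Snai2, Twist1, Twist2, Prrx1, Prrx2 and Foxc2. The highest group was GFP at day 10 for Snai1, Snai2, Twist1, Zeb1 and Prrx2, and GFP at day 6 for Twist2, Foxc2 and Tcf21. Prrx1 was highest in SKO+Flag at day 6 and Zeb2 in SKO+HDAC7 at day 6. Of the factors, 8 were above the array median on all 14 arrays. Foxc2 was above it on 8 arrays, GFP and SKO+MEF2C among them, and Tcf21 on 0 arrays.

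**Figure D1:**
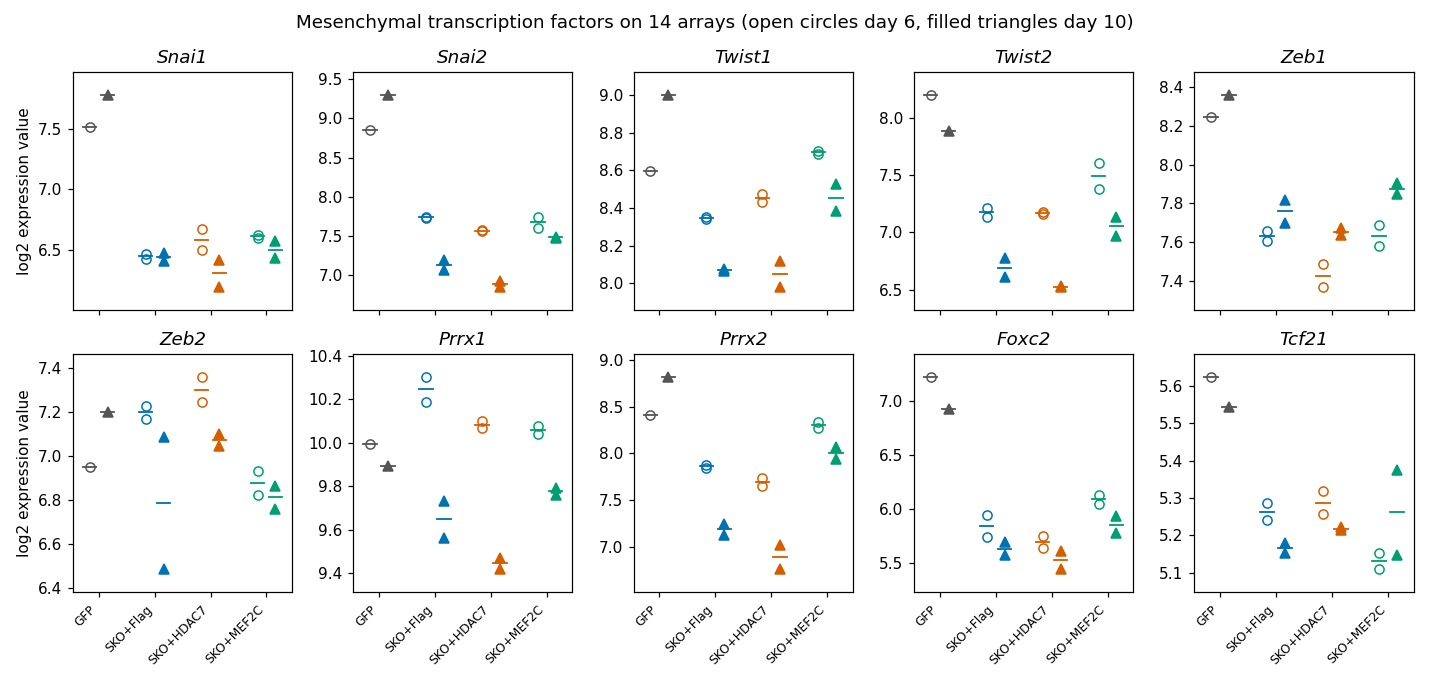
Log2 expression value of each factor on all 14 arrays, by vector, with open circles for day 6, filled triangles for day 10 and horizontal bars for group means; each panel has its own axis, which does not start at 0. The 2 GFP points stand clear above all 12 SKO points for Snai1, Snai2, Twist2, Zeb1, Prrx2, Foxc2 and Tcf21, while Twist1, Zeb2 and Prrx1 overlap. GFP has 1 array a day.

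SKO with the empty vector was compared with GFP to see what the reprogramming factors did to the mesenchymal program. With SKO, 8 of the 10 factors fell and 0 rose in the mean of both days, where 35.7% of all genes were called, 18.2% lower and 17.5% higher (limma, Benjamini-Hochberg adjusted p under 0.05 over all genes). The median difference of the 10 factors was -0.85, against -0.04 for all genes. Snai2 fell most, 3.12-fold, followed by Foxc2, Snai1, Twist2 and Prrx2, each lower by 2.13-fold to 2.53-fold. Zeb2 and Prrx1 did not pass the test. Within each day 8 factors were called as well, all lower, where 24.1% of all genes were called at day 6 (10.8% lower, 13.2% higher) and 26.9% at day 10 (13.2% lower, 13.7% higher). In bulk RNA, fewer cells of a type and less RNA per cell cannot be told apart. The GFP groups have 1 array each, and their spread was taken from the other groups.

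Snai1, the SNAIL repressor that acts early in EMT, had log2 values of 7.52 and 7.79 on the GFP arrays of day 6 and day 10. On the SKO+Flag arrays it had 6.42 and 6.47 at day 6 and 6.47 and 6.41 at day 10. All SKO+Flag arrays lay in a band of under 0.1, more than 1 log2 unit below either GFP array. The difference was -1.21 ± 0.08 (SE) on the log2 scale, or 2.31-fold lower (limma adjusted p = 2.3e-07). Snai2, the SLUG repressor expressed in many mesenchymal cells, had 8.86 and 9.30 with GFP. With SKO+Flag it had 7.73 and 7.75 at day 6 and 7.06 and 7.20 at day 10. The groups did not overlap, and the day 10 arrays were further from GFP than the day 6 arrays. The difference over both days was -1.64 ± 0.06 (limma adjusted p = 2.9e-09).

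Twist1, needed for cranial and limb mesenchyme, had 8.597 and 9.0001 with GFP. With SKO+Flag it had 8.35 and 8.34 at day 6 and 8.07 and 8.08 at day 10. The groups were apart on each day, narrowly at day 6. The difference was -0.59 ± 0.06 over both days (limma adjusted p = 1.1e-05). At day 6 alone it was -0.25 ± 0.08 (adjusted p = 0.0495), which was lost when each array was centred on its median (adjusted p = 0.13) and without either SKO+Flag array of day 6 (adjusted p = 0.11 each). Twist2, its close relative in dermis and bone precursors, had 8.20 and 7.88 with GFP, and 7.21, 7.13, 6.61 and 6.78 with SKO+Flag in the order of day and experiment. Every SKO+Flag array was below both GFP arrays. The difference was -1.11 ± 0.08, or 2.15-fold lower (limma adjusted p = 5.8e-07).

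The ZEB genes differed from each other. Zeb1 had 8.25 and 8.36 with GFP, and 7.61, 7.66, 7.70 and 7.82 with SKO+Flag. Every SKO+Flag array was below GFP, and the difference was alike at day 6 (-0.61) and day 10 (-0.60). Over both days it was -0.61 ± 0.06 (limma adjusted p = 1e-05). Zeb2 had 6.95 and 7.20 with GFP, and 7.23, 7.17, 6.48 and 7.09 with SKO+Flag. These groups overlapped, and the difference was -0.08 ± 0.13 (limma adjusted p = 0.67). The value of 6.48, from experiment 1 at day 10, lay 0.60 below its replicate, the widest gap between replicates of any of the 10 factors. Without experiment 2 of that group the Zeb2 difference over both days was -0.23 (adjusted p = 0.018), so Zeb2 in SKO+Flag at day 10 rests on which array is used.

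The paired homeobox genes also parted. Prrx1, active in limb bud mesenchyme, had 9.99 and 9.89 with GFP. With SKO+Flag it had 10.19 and 10.30 at day 6 and 9.56 and 9.73 at day 10. SKO+Flag was thus above GFP at day 6 and below it at day 10, and the difference over both days was 0.00 ± 0.06 (limma adjusted p = 0.98). Prrx2 had 8.41 and 8.82 with GFP, and 7.88, 7.84, 7.12 and 7.25 with SKO+Flag. All SKO+Flag arrays were below both GFP arrays, with day 10 the lower. The difference was -1.09 ± 0.08, or 2.13-fold lower (limma adjusted p = 5.9e-07).

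Foxc2 had 7.22 and 6.93 with GFP, and 5.74, 5.94, 5.69 and 5.57 with SKO+Flag. Its SKO+Flag arrays lay near the array median, and its GFP arrays lay 1.47 and 1.19 above it. The difference was -1.34 ± 0.08, or 2.53-fold lower (limma adjusted p = 1.7e-07). Tcf21 had 5.62 and 5.54 with GFP, and between 5.15 and 5.29 with SKO+Flag. The groups did not overlap, but all values were below the array median. The difference was -0.37 ± 0.06 (limma adjusted p = 0.00083). These 8 calls held in every alternative fit of this comparison, 12 of them for most factors and 11 for Foxc2 and Tcf21. Averaging probe sets, among these fits, left the values of the factors unchanged. No fit left out a GFP array.

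Compared with GFP, SKO+HDAC7 had 9 factors lower and 0 higher (all genes: 33.4% called, 15.9% lower and 17.5% higher). SKO+MEF2C had 8 lower and 0 higher (all genes: 31.3% called, 14.6% lower and 16.6% higher). These comparisons share the GFP arrays with that of SKO+Flag. Snai2 was 3.60-fold lower than GFP with HDAC7 and 2.83-fold lower with MEF2C. Prrx2 was 2.50-fold lower with HDAC7 and 1.37-fold lower with MEF2C. Twist1 was 1.46-fold lower with HDAC7 and 1.17-fold lower with MEF2C. For Twist1 the SKO+MEF2C arrays of day 6, at 8.69 and 8.70, were above the GFP array of that day, and those of day 10, at 8.38 and 8.53, were below theirs. The ninth factor with HDAC7 was Prrx1, at -0.18 ± 0.06 (limma adjusted p = 0.040). That call was lost without any SKO+HDAC7 array, at adjusted p from 0.057 to 0.097, and after quantile normalization.

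Other cell types were looked for by their markers. The log2 of the summed level of the 8 fibroblast markers was 14.7 to 14.9 on GFP arrays, 14.1 to 14.3 with SKO+Flag, 13.9 to 14.2 with SKO+HDAC7 and 14.3 to 14.4 with SKO+MEF2C. It was thus highest with GFP, as most of the 10 factors were. That of 6 endothelial markers was 7.64 to 7.70 with GFP, 8.38 to 8.99 with SKO+Flag, 8.68 to 9.56 with SKO+HDAC7 and 8.18 to 8.49 with SKO+MEF2C, with 5 of the 6 below the array median on all SKO arrays. That of 4 neural markers was 7.72 to 7.76, 8.17 to 8.30, 8.68 to 8.99 and 7.91 to 8.14 in the same order. Of 6 macrophage and blood markers, 5 were below the array median on every array, with sums of 7.68 to 7.78, 7.69 to 7.91, 7.84 to 8.29 and 7.75 to 7.98. Keratinocyte markers summed to 7.67 to 7.72 with GFP, 7.69 to 7.97 with SKO+Flag, 7.86 to 8.36 with SKO+HDAC7 and 7.61 to 7.76 with SKO+MEF2C. Skeletal muscle markers summed to 7.70 to 7.73, 7.12 to 7.32, 7.26 to 7.48 and 7.36 to 7.57 in that order, highest with GFP. With SKO+Flag against GFP, Tek differed by 2.35 at day 6 and 3.21 at day 10. The other endothelial markers were called on neither day. The neural marker Nefl differed by 1.36 and 1.77 and Tubb3 by 0.59 and 0.06, while Mbp and Sox10 were called on neither day. At day 10, Krt14 differed by 1.02 and Krt15 by -0.26, and the other keratinocyte markers were not called. Of the macrophage and blood markers, Cd68 differed by 0.39 at day 6 and 0.70 at day 10, and Lyz2 by -0.67 at day 10. The others of that list were called on neither day. Of the muscle markers, Des differed by -0.54 at day 6 and -1.07 at day 10, and Myod1 by -0.50 at day 6. Myog and Myf5 were called on neither day. The part of the shifts in these sums in the differences of the 10 factors was not tested.

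HDAC7 was added to SKO to see how the deacetylase alters expression during reprogramming. In the mean of both days, 3 of the 10 factors were lower with HDAC7 than with the empty vector and 0 were higher, where 10.9% of all genes were called, 6.06% lower and 4.83% higher. The 3 were Snai2, Prrx1 and Prrx2, each with a change of less than 1.2-fold. The median over the 10 factors was -0.10, against 0.02 for all genes. Centring each array on its median moved the split of all genes from 963 higher and 1208 lower to 637 higher and 1519 lower. At day 6 it moved from 363 higher and 551 lower to 235 and 708, and at day 10 from 663 and 787 to 465 and 856.

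Snai2 had 7.58 and 7.56 with HDAC7 at day 6 and 6.92 and 6.85 at day 10, each below both SKO+Flag arrays of its day. The difference was -0.21 ± 0.05, or 1.15-fold lower (limma adjusted p = 0.021). Prrx2 had 7.65 and 7.73 at day 6 and 6.76 and 7.02 at day 10, again below both SKO+Flag arrays of each day. Its difference was -0.23 ± 0.06, or 1.18-fold lower (limma adjusted p = 0.035). Prrx1 had 10.07 and 10.10 at day 6 and 9.47 and 9.42 at day 10, and its difference was -0.18 ± 0.05 (limma adjusted p = 0.038). Leaving out a single array ended the call for 6 of the 8 arrays for each of these genes, with adjusted p up to 0.071 for Snai2 and 0.11 for Prrx1 and Prrx2. The call held without SKO+Flag experiment 1 of day 10 for all of them. It also held without SKO+HDAC7 experiment 1 of day 10 for Snai2, SKO+Flag experiment 1 of day 6 for Prrx1 and SKO+HDAC7 experiment 2 of day 10 for Prrx2. Over these fits 0 to 4 factors were called, with 0 without SKO+Flag experiment 2 or either SKO+HDAC7 array of day 6. Fitting these groups alone left 1 of the 3.

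The other factors showed no called HDAC7 effect. Snai1 had 6.50 and 6.67 at day 6, above SKO+Flag, and 6.41 and 6.19 at day 10. Its difference over both days was 0.00 ± 0.06 (limma adjusted p = 1.0). Twist1 had 8.47, 8.43, 8.12 and 7.98, and its difference was 0.04 ± 0.05. Twist2 had 7.18, 7.16, 6.53 and 6.53, with a difference of -0.09 ± 0.06. For those 3 genes the SKO+HDAC7 arrays lay above SKO+Flag in some pairs of a day and below it in others. Zeb1 had 7.37, 7.48, 7.67 and 7.64, below SKO+Flag in all 8 pairs of arrays of a day, with a difference of -0.15 ± 0.05 that missed the threshold (limma adjusted p = 0.069). Zeb2 had 7.25, 7.36, 7.04 and 7.10, with a difference of 0.19 ± 0.10 (limma adjusted p = 0.27). Without experiment 2 of SKO+Flag at day 10, Zeb2 had a difference of 0.35 (limma adjusted p = 0.0030). Foxc2 ranged from 5.44 to 5.75 and Tcf21 from 5.22 to 5.32, and neither was called. Within either day, limma called 0 of the 10 factors, where 4.58% of all genes were called at day 6 (1.82% higher, 2.76% lower) and 7.27% at day 10 (3.33% higher, 3.95% lower). At an unadjusted p under 0.05 it called 3 on each day, but the share of all genes at that threshold was not computed.

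**Figure D2:**
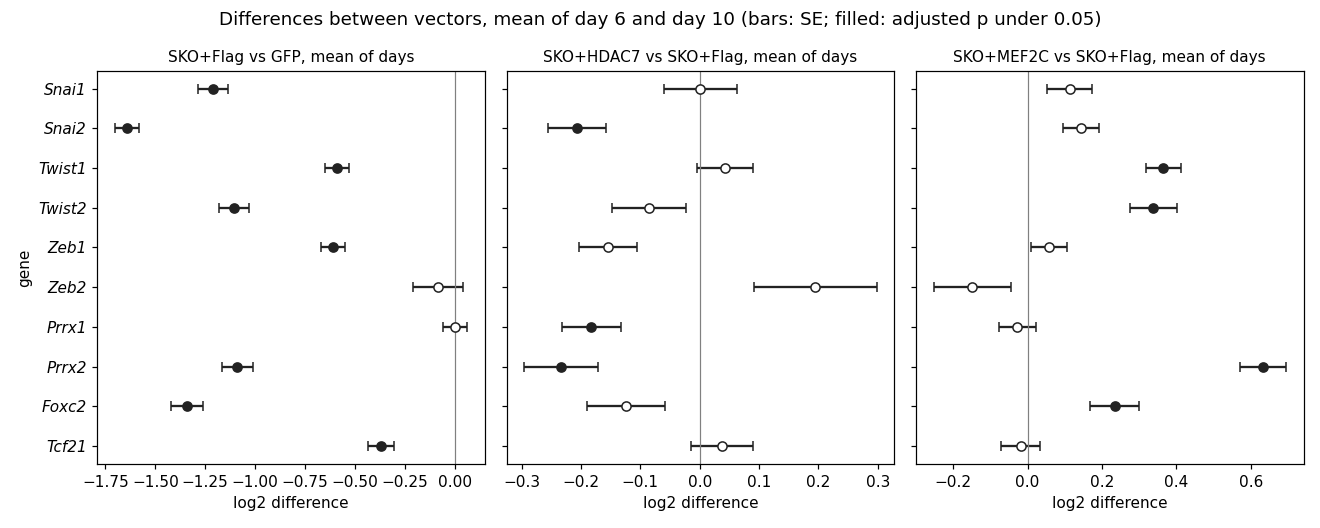
Difference in log2 expression value for each factor, averaged over day 6 and day 10, for SKO+Flag against GFP (left), SKO+HDAC7 against SKO+Flag (middle) and SKO+MEF2C against SKO+Flag (right); bars are SE, filled points have limma adjusted p under 0.05, and the 3 axes differ in scale. The left panel reaches -1.64 for Snai2, while the middle one stays within 0.3 of 0 and the right one reaches 0.63 for Prrx2.

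MEF2C was added to SKO in the same way. In the mean of both days 4 factors were higher with MEF2C than with the empty vector and 0 were lower, where 10.3% of all genes were called, 5.49% higher and 4.82% lower. They were Prrx2, Twist1, Twist2 and Foxc2. The median over the 10 factors was 0.13, against 0.01 for all genes. Centring each array on its median moved the split of all genes from 1094 higher and 960 lower to 838 higher and 1040 lower, and still called 4 of the 10 factors.

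Prrx2 had 8.33 and 8.27 with MEF2C at day 6 and 8.07 and 7.94 at day 10. Its lowest SKO+MEF2C array was above its highest SKO+Flag array. The difference was 0.63 ± 0.06, or 1.55-fold higher (limma adjusted p = 8.8e-05). It passed on each day, with 0.44 at day 6 (adjusted p = 0.022) and 0.82 at day 10 (adjusted p = 0.00026), though the day 6 call was lost without any single array of the groups compared. Twist1 had 8.69 and 8.70 at day 6 and 8.38 and 8.53 at day 10. These too were all above the SKO+Flag arrays, with a difference of 0.37 ± 0.05 (limma adjusted p = 0.00060). Twist2 had 7.38 and 7.60 at day 6 and 6.97 and 7.14 at day 10, above SKO+Flag in all 8 pairs of a day. Its difference was 0.34 ± 0.06, or 1.26-fold higher (limma adjusted p = 0.0054). The calls over both days for Prrx2, Twist1 and Twist2 held in all 16 alternative fits, with adjusted p of at most 0.00087, 0.0041 and 0.027. Averaging probe sets, among these fits, left the values of the factors unchanged.

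Foxc2 had 6.05, 6.13, 5.78 and 5.93 with MEF2C, above SKO+Flag in all 8 pairs, by 0.23 ± 0.07 (limma adjusted p = 0.046). That call was not stable: it missed the threshold in 10 of 15 alternatives, among them the fits without SKO+Flag experiment 1 of day 6 (0.18, adjusted p = 0.15), without SKO+Flag experiment 2 of day 10 (0.20, adjusted p = 0.12) and without any SKO+MEF2C array (adjusted p from 0.054 to 0.16). Snai2 had 7.75 and 7.60 at day 6, within or near the range of SKO+Flag, and 7.48 and 7.49 at day 10, above both SKO+Flag arrays. At day 10 alone its difference was 0.35 ± 0.07 (limma adjusted p = 0.010), and over both days 0.14 ± 0.05 (adjusted p = 0.096). The day 10 call was lost without SKO+Flag experiment 1 (0.28, adjusted p = 0.068) and without either SKO+MEF2C array. At day 10 limma called 4 factors higher, Snai2, Twist1, Twist2 and Prrx2, where 7.01% of all genes were called, 4% higher and 3% lower. At day 6 it called Twist1 and Prrx2, where 3.1% of all genes were called, 1.33% higher and 1.77% lower. Fitting the compared groups alone left 1 call on each day. The day 6 count was 0 without any of its 4 arrays, and the day 10 count was 2 without SKO+Flag or SKO+MEF2C experiment 1 and 1 without SKO+MEF2C experiment 2.

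The remaining factors were not called with MEF2C. Snai1 had 6.60, 6.62, 6.57 and 6.43, a difference of 0.11 ± 0.06 (limma adjusted p = 0.33). Zeb1 had 7.69, 7.58, 7.85 and 7.90, a difference of 0.06 ± 0.05. Prrx1 had 10.04, 10.08, 9.79 and 9.76, a difference of -0.03 ± 0.05. Over both days the arrays of SKO+MEF2C and SKO+Flag overlapped for these 3 genes. Within days Prrx1 did not overlap: both SKO+MEF2C arrays were below both SKO+Flag arrays at day 6 (-0.19, limma adjusted p = 0.24) and above them at day 10 (0.13, limma adjusted p = 0.37). Zeb2 had 6.93, 6.82, 6.86 and 6.76, the lowest vector mean for that gene, and differed by -0.15 ± 0.10 (limma adjusted p = 0.47). Without experiment 1 of SKO+Flag at day 10, the low Zeb2 array, that difference was -0.30 (limma adjusted p = 0.0061). Tcf21 lay between 5.11 and 5.38 (difference -0.02).

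Set directly against each other, SKO+HDAC7 and SKO+MEF2C differed in 8 of the 10 factors. With HDAC7, 7 factors were lower than with MEF2C and 1 was higher, where 22% of all genes were called, 11.8% lower and 10.3% higher. Prrx2 differed most, at -0.87 ± 0.06, or 1.82-fold lower with HDAC7 (limma adjusted p = 2.2e-06). Twist2 was lower by -0.42 ± 0.06, Foxc2 by -0.36 ± 0.07, Snai2 by -0.35 ± 0.05, Twist1 by -0.32 ± 0.05 and Zeb1 by -0.21 ± 0.05, with limma adjusted p from 0.00034 to 0.0088 for these 5. Each of those 6 differences was lower with HDAC7 in all 8 pairs of arrays of a day, and each held in every alternative fit. Prrx1 was lower by -0.15 ± 0.05 (limma adjusted p = 0.045) and Zeb2 higher by 0.34 ± 0.10 (limma adjusted p = 0.036). Both of these calls were lost without any single SKO+HDAC7 or SKO+MEF2C array, with adjusted p up to 0.13 for Prrx1 and 0.11 for Zeb2. Snai1 (-0.11) and Tcf21 (0.06) did not pass. In the mean of both days the order of vectors for Snai2, Twist2, Zeb1, Prrx2 and Foxc2 was GFP, SKO+MEF2C, SKO+Flag and SKO+HDAC7, from high to low. The neighbours SKO+MEF2C and SKO+Flag were not called different for Snai2 and Zeb1, nor were SKO+Flag and SKO+HDAC7 for Twist2, Zeb1 and Foxc2.

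The course from day 6 to day 10 was then compared within each vector. In SKO+Flag 5 factors fell and 0 rose, where 8.08% of all genes were called, 4.33% lower and 3.75% higher. In SKO+HDAC7 5 fell and 1 rose, where 14.6% of all genes were called, 6.7% lower and 7.86% higher. In SKO+MEF2C 1 fell and 0 rose, where 3.08% of all genes were called, 1.23% lower and 1.85% higher. Snai2, Twist1, Twist2, Prrx1 and Prrx2 were the factors that fell in SKO+Flag and in SKO+HDAC7.

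Prrx2 fell by 0.67 in SKO+Flag and by 0.80 in SKO+HDAC7 on the log2 scale (SE 0.09, limma adjusted p = 0.00075 and 0.00014), and differed by -0.30 in SKO+MEF2C (adjusted p = 0.12). Snai2 fell by 0.61 and 0.68 (SE 0.07, limma adjusted p = 0.00030 and 7.9e-05), and differed by -0.19 in SKO+MEF2C (adjusted p = 0.22). Prrx1 fell by 0.60 and 0.64 (SE 0.07, limma adjusted p = 0.00036 and 0.00013), and differed by -0.28 in SKO+MEF2C (adjusted p = 0.058). For these 3 genes no day 10 array reached a day 6 array of the same SKO vector. Twist2 fell in all SKO vectors, by 0.48 in SKO+Flag, 0.64 in SKO+HDAC7 and 0.44 in SKO+MEF2C (SE 0.09, limma adjusted p = 0.0063, 0.00069 and 0.022). The SKO+MEF2C call for Twist2 was lost without day 6 experiment 2 (adjusted p = 0.20) or without either day 10 array. Twist1 fell by 0.28 in SKO+Flag (limma adjusted p = 0.030), a call that no fit without one of its arrays kept (adjusted p from 0.071 to 0.11), and by 0.40 in SKO+HDAC7 (limma adjusted p = 0.0023). Zeb1 went the other way and was higher at day 10 in all 4 pairs of arrays of each SKO vector, by 0.13, 0.23 and 0.24. Only the SKO+HDAC7 value passed, at a limma adjusted p of 0.04998, and leaving out any array of that vector ended the call (adjusted p from 0.056 to 0.27). Snai1, Zeb2, Foxc2 and Tcf21 were called in none of the vectors.

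Whether the effect of a vector changed between days was tested as an interaction. The HDAC7 effect changed for 0 of the 10 factors in limma (1 at an unadjusted p under 0.05), where 0.125% of all genes were called (0.0401% higher, 0.0853% lower). The MEF2C effect changed for 0 of them (3 at an unadjusted p under 0.05), where 0.0853% of all genes were called (0.0451% higher, 0.0401% lower). These shares are at the adjusted threshold, and those at the unadjusted one were not computed. For the MEF2C effect Snai2 had the largest change, 0.42 ± 0.10 (limma adjusted p = 0.21). So the smaller falls of Snai2, Prrx1 and Prrx2 in SKO+MEF2C were not shown to differ from those in SKO+Flag. The difference between SKO+Flag and GFP did change between days for 4 factors, all toward lower values at day 10, where 5.06% of all genes were called, 3.16% that way and 1.9% the other. They were Prrx2 (-1.08 ± 0.15, limma adjusted p = 0.0019), Snai2 (-1.05 ± 0.12, limma adjusted p = 0.00051), Twist1 (-0.68 ± 0.12, limma adjusted p = 0.0064) and Prrx1 (-0.50 ± 0.12, limma adjusted p = 0.038). For Prrx2, Snai2 and Twist1 the GFP array of day 10 was higher than that of day 6 while the SKO+Flag arrays were lower. Prrx1 was lower at day 10 with GFP too, by less. With 1 GFP array a day, a change of GFP over time cannot be told apart from a difference between 2 arrays.

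**Figure D3:**
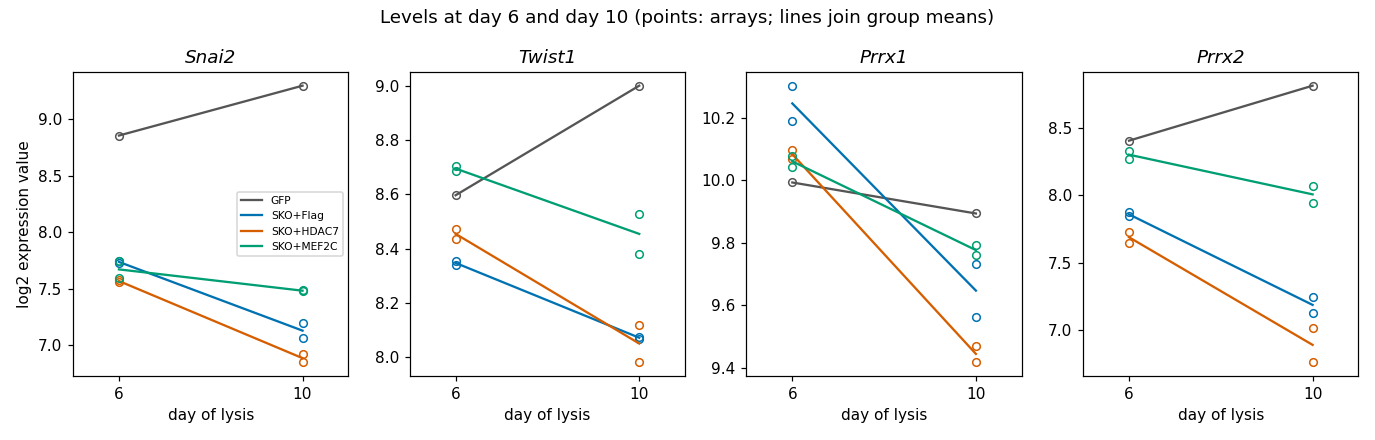
Log2 expression value at day 6 and day 10 for Snai2, Twist1, Prrx1 and Prrx2; circles are arrays and lines join the group means of each vector, with 1 GFP array a day and an axis of its own for each panel. The SKO lines run downward, while the GFP line rises for Snai2, Twist1 and Prrx2.

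Genes that work with these factors were read from 6 lists chosen for their roles. The shares of all genes called, against which each list's counts stand, were 17.5% higher and 18.2% lower with SKO+Flag against GFP. They were 4.83% higher and 6.06% lower with HDAC7, and 5.49% higher and 4.82% lower with MEF2C. bHLH partners and inhibitors, which set which dimers TWIST proteins can form, held 7 genes. With SKO+Flag against GFP, 3 of them rose and 3 fell in the mean of both days. The inhibitors Id1, Id2 and Id4 rose by 1.21 ± 0.07, 0.61 ± 0.06 and 0.52 ± 0.08, while Id3 (-0.57 ± 0.09) and the partners Tcf4 (-0.48 ± 0.11) and Tcf3 (-0.28) fell. Of these, Id1 passed on each day. Id2 had 1.11 at day 6 and 0.12 at day 10 (limma adjusted p = 0.38), and Id4 had 0.94 and 0.11 (limma adjusted p = 0.57 at day 10). Id3 had -0.06 at day 6 (limma adjusted p = 0.80) and -1.07 at day 10. Tcf3 had -0.48 at day 6 and -0.09 at day 10 (limma adjusted p = 0.63), and Tcf4 passed at day 10 alone. With HDAC7, Id3 (-0.44), Tcf4 (-0.34) and Id2 (-0.26) fell and none rose. With MEF2C, Id3 (0.69), Tcf4 (0.35) and Id4 (0.31) rose and none fell. Id3 thus differed by -1.12 ± 0.08 between HDAC7 and MEF2C (limma adjusted p = 1.4e-06).

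Corepressors that SNAI and ZEB proteins recruit, among them deacetylases and Polycomb proteins, held 10 genes. Of these, 5 rose with SKO+Flag against GFP and 0 fell, where 17.5% and 18.2% of all genes did: Suz12 (0.98 ± 0.14), Ezh2 (0.72 ± 0.06), Hdac2 (0.50 ± 0.07), Ctbp2 (0.45 ± 0.06) and Sin3a (0.22). HDAC7 changed 0 of them in limma, where 10.9% of all genes were called. At an unadjusted p under 0.05 the count was 2, but the share of all genes at that threshold was not computed. With MEF2C, Hdac2 (-0.24) and Ezh2 (-0.20) fell, where 4.82% of all genes did.

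TGF-beta is a main inducer of these factors, and 14 of its ligands, receptors and signal proteins were read. With SKO+Flag against GFP, 7 fell and 3 rose, led by the co-receptor Tgfbr3 (-2.34 ± 0.08), the ligand Tgfb3 (-1.85 ± 0.07), the inhibitor Skil (1.23 ± 0.07) and the receptor Tgfbr2 (-0.51 ± 0.06). With HDAC7 4 fell and 0 rose: the ligands Tgfb2 (-0.85 ± 0.07) and Tgfb3 (-0.36 ± 0.05) and the inhibitors Smad7 (-0.42 ± 0.05) and Skil (-0.30). With MEF2C 4 rose and 0 fell: Tgfb3 (0.59 ± 0.05), the inhibitor Smad6 (0.33 ± 0.05), Tgfb1 (0.25) and Skil (0.23). Tgfb3 was lower with HDAC7 and higher with MEF2C, as Prrx2 was. Both lists of called genes hold inhibitors of the pathway as well as ligands.

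Of 24 epithelial genes that EMT factors repress, 9 rose and 0 fell with SKO+Flag against GFP. They were led by the junction and adhesion genes Perp (2.22 ± 0.06), Dsp (1.93 ± 0.08), Epcam (1.90 ± 0.08) and Jup (1.57 ± 0.07). Epcam had 0.54 at day 6 and 3.26 at day 10. With HDAC7 8 rose and 0 fell against SKO+Flag, led by the keratin gene Krt19 (1.48 ± 0.05), Cdh1 (0.56 ± 0.08), Epcam (0.52 ± 0.07) and Krt8 (0.43 ± 0.10). Within days Cdh1, Epcam and Krt8 passed at day 10 (0.91, 0.82 and 0.75) and not at day 6 (0.21, 0.22 and 0.10). With MEF2C 0 rose and 6 fell, led by Epcam (-1.11 ± 0.07), Krt8 (-0.62 ± 0.10), Cdh1 (-0.47 ± 0.08) and Ocln (-0.39 ± 0.09). The MEF2C difference of Epcam changed by -1.15 ± 0.14 from day 6 to day 10 (limma adjusted p = 0.015). From day 6 to day 10, 7 of the 24 genes rose in SKO+Flag, 15 in SKO+HDAC7 and 3 in SKO+MEF2C, and 0 fell in any of them. Of all genes, 3.75%, 7.86% and 1.85% were called higher and 4.33%, 6.7% and 1.23% lower, in that order. Epcam rose by 2.36 ± 0.10, 2.95 ± 0.10 and 1.21 ± 0.10 over those days.

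Of 18 mesenchymal genes that rise in EMT, 16 fell and 0 rose with SKO+Flag against GFP in the mean of both days. The median of the 18 genes was -1.06. The falls were led by Lox (-2.47 ± 0.05), which cross-links collagen, the receptor gene Pdgfra (-2.25 ± 0.08), Col3a1 (-2.25 ± 0.06) and the matrix gene Postn (-2.17 ± 0.16). The days differed: S100a4 was called lower at day 6 (-0.51, limma adjusted p = 0.0038) and higher at day 10 (0.40, limma adjusted p = 0.013). Cdh2, Cdh11, Sparc, Col1a2 and Tnc were called lower at day 10 and not called at day 6, and Vim was called on neither day. With HDAC7 14 fell and 3 rose, with a median of -0.32. Lox (-1.13 ± 0.04), Postn (-0.74 ± 0.13) and Pdgfrb (-0.48 ± 0.05) fell, while Col3a1 (0.88 ± 0.05), Cdh2 (0.48) and Pdgfra (0.23) rose. With MEF2C 9 rose and 0 fell, with a median of 0.21, led by Postn (1.12 ± 0.13), Lox (0.83 ± 0.04), Thy1 (0.53 ± 0.05) and Fn1 (0.43 ± 0.06). Fibroblast markers overlap this list in 7 of 8 genes.

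Of 30 other transcription factors of mesenchyme and limb mesoderm, 27 were measured. With SKO+Flag against GFP 13 fell and 3 rose. Foxd1 (2.09 ± 0.08) and Meox2 (2.84-fold) rose, while the cartilage factor Sox9 (-0.87 ± 0.05) and Osr1 (-0.85 ± 0.08) fell. With HDAC7 4 fell and 0 rose: Tead1 (-0.48 ± 0.05), Meox2 (-0.36 ± 0.07), Foxc1 (-0.36 ± 0.06), the close relative of Foxc2, and Tbx5 (-0.16). With MEF2C 5 rose and 3 fell, led by Foxd1 (-1.04 ± 0.07), Meox2 (0.39 ± 0.07), Shox2 (0.32 ± 0.09) and Osr1 (-0.30 ± 0.06). Foxd1 thus moved against Prrx2 and Twist1 in both of these comparisons: it was above GFP with SKO and below SKO+Flag with MEF2C.

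**Figure D4:**
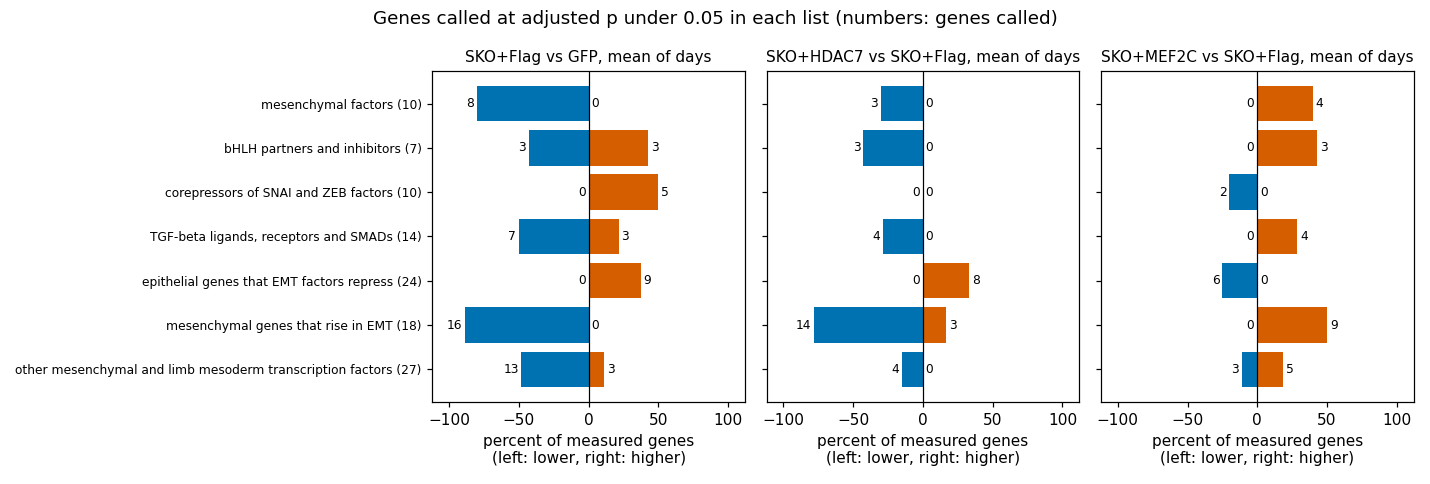
Percent of the measured genes of each list, with the 10 factors on top, that were called lower (left, blue) or higher (right, orange) at limma adjusted p under 0.05, for SKO+Flag against GFP, SKO+HDAC7 against SKO+Flag and SKO+MEF2C against SKO+Flag; the printed numbers are genes called and the numbers in brackets genes measured. The mesenchymal genes that rise in EMT show 16 of 18 lower, 14 of 18 lower and 9 of 18 higher, and the 10 factors 8 lower, 3 lower and 4 higher.

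Likeness between patterns was described by Pearson's r over the 8 group means, which share the gap between GFP and SKO, so many genes with that gap are alike. Among the factors, r was 0.97 for Snai1 and Snai2, 0.96 for Twist1 and Prrx2, and 0.95 for Foxc2 with Snai1 and with Twist2. Within families it was 0.84 for the TWIST genes, 0.59 for the PRRX genes and -0.12 for the ZEB genes. Zeb2 reached at most 0.40 with any other factor. The genes closest to each factor were sought among 2040 others with a span of 1 or more, for the 5 factors with such a span. Closest to Snai1 were Col16a1, B3gnt9 and Ccn5 (r of 0.998, 0.996 and 0.996), and to Snai2 Mmp23, Fat4 and Kdelr3 (0.999, 0.995 and 0.994). Closest to Twist2 were Cd80, Ptprn and Flnc (0.997, 0.987 and 0.986). Prrx2 was closest to Txndc5, Arhgap24 and Adamts1 (0.993, 0.989 and 0.989), and Foxc2 to Ifngr2, Prkg2 and Lrrc32 (0.995, 0.994 and 0.994). Adamts1, a secreted metalloproteinase gene, differed by -1.20 with SKO+Flag against GFP, -0.57 with HDAC7 and 0.65 with MEF2C, where Prrx2 differed by -1.09, -0.23 and 0.63.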

How the data were processed

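Each probe set has 1 deposited log2 value per array; RMA and Partek are named, without versions, in the submitters' processing notes. The genome build is not given in the sources used here. The deposited values were used without further scaling or a filter on dim probe sets. The platform table gave 1 symbol for 21780 of 28815 probe sets, several for 1605 and none here for 5430; 21689 symbols matched RefSeq (GRCm38.p6), which changed 0. Per gene the probe set with the highest mean was kept, leaving 19935 genes.

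In R 4.3.3 with limma 3.58.1, a group-means model was fitted to all 14 arrays in 8 groups (lmFit, eBayes; 6 residual and 4.71 prior degrees of freedom). Calls need an adjusted p (Benjamini-Hochberg, all genes) under 0.05; errors are SE. The number of arrays limits the precision.

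All 10 factors are named, and of each list up to 4 called genes per comparison by size of change. Tcf3, Tcf4, Sin3a, Cdh2, Pdgfra, S100a4, Cdh11, Vim, Sparc, Col1a2 and Tnc were added there after their values were seen. Like genes are the 3 with the highest r among genes with a span of 1 or more. The members and lists were chosen with earlier results of these data known. Some list entries are not reported here. Alternatives were quantile normalization, median centring, an intensity-dependent robust prior, the compared groups alone and averaging a gene's probe sets. Others were only genes of above-median level, a replicate block and leaving out each SKO array. Each factor has 1 probe set, so averaging left its own values unchanged and that fit could hardly differ for it. GFP arrays were not left out.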

Additional observations from a re-analysis of the deposited data

Results flagged for a closer look

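The difference between SKO+Flag and GFP changed from day 6 to day 10 for 4 of the 10 factors, tested as an interaction in limma. The change was -1.05 ± 0.12 for Snai2 (adjusted p = 0.00051), -1.08 ± 0.15 for Prrx2 (adjusted p = 0.0019), -0.68 ± 0.12 for Twist1 (adjusted p = 0.0064) and -0.50 ± 0.12 for Prrx1 (adjusted p = 0.038). Each rests on 1 GFP array a day. Over 12 alternatives the adjusted p reached 0.043 for Snai2, 0.038 for Prrx2, 0.078 for Twist1 and 0.28 for Prrx1, each time in the fit to the compared groups alone. Without SKO+Flag day 6 replicate 2 Prrx1 had -0.44 (adjusted p = 0.098), and without day 10 replicate 1 it had -0.41 (adjusted p = 0.076).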

How the results depend on the processing

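No difference of the 10 factors that was called turned its direction in any alternative. Over the differences of single factors in the alternative fits, 2096 kept both their direction and their side of the threshold. Another 111 lost a call, 33 gained a call, and 54 that were called in neither fit changed sign. These counts include the averaging of probe sets, which left the values of the factors unchanged. Counts of called factors were judged apart, and a count within 1.5 times was taken as the same. Causes were not tested. The counts in the rest of this paragraph stand without the share of all genes called in the same fit, which is not reported here. Quantile normalization gave 2 called factors for SKO+HDAC7 against SKO+Flag at day 10 and 2 for day 10 against day 6 in SKO+MEF2C, and so did testing only genes above the median level, which left Foxc2 and Tcf21 out. The robust prior gave 2 for day 10 against day 6 in SKO+MEF2C. The compared groups alone, with fewer arrays to estimate the spread, gave 1 for SKO+HDAC7 against SKO+Flag over both days, 1 for SKO+MEF2C against SKO+Flag at day 6 and 1 at day 10, 3 for day 10 against day 6 in SKO+Flag, 0 in SKO+MEF2C, and 2 for the change of the GFP difference between days.

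Leaving out each SKO array in turn gave the following counts of called factors, with the range over all 19935 genes for the same fits in brackets. No fit left out a GFP array, so the ranges against GFP do not cover the spread of GFP. SKO+HDAC7 against SKO+Flag had 0 to 4 over both days (1469 to 2404), 0 to 0 at day 6 (293 to 460) and 0 to 1 at day 10 (785 to 1484). SKO+MEF2C against SKO+Flag had 3 to 5 (1381 to 2148), 0 to 0 (157 to 268) and 1 to 5 (691 to 1421). SKO+Flag against GFP had 8 to 9 (6367 to 7550), 7 to 7 (3753 to 4442) and 8 to 10 (4652 to 5584). SKO+HDAC7 against SKO+MEF2C had 6 to 6 (3342 to 3889). Against GFP, SKO+HDAC7 had 8 to 8 (6107 to 6192) and SKO+MEF2C 8 to 8 (5334 to 5700). Day 10 against day 6 had 4 to 5 in SKO+Flag (944 to 1905), 5 to 6 in SKO+HDAC7 (1571 to 2063) and 0 to 1 in SKO+MEF2C (250 to 317). The change between days had 0 to 0 for HDAC7 (0 to 483), 0 to 1 for MEF2C (2 to 213) and 3 to 5 for SKO+Flag against GFP (799 to 1221).

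Experiment numbers were not taken to pair the samples, since not every pair of groups correlated above 0.1: deviations of same-numbered arrays correlated at -0.09 to 0.18 over 6 pairs within a day and at -0.24 to 0.18 over all 15 pairs, of which 4 were above 0.1. With the replicate block over both days, 3 factors were called for HDAC7 and 3 for MEF2C, against 3 and 4 without it. The call lost was Foxc2 (limma adjusted p = 0.062). The share of all genes called with the block is not reported here. With SKO+Flag day 6 numbers crossed, a pairing added after the data were seen, day 10 against day 6 in SKO+Flag had 5.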
